A study of Mus musculus with 39 samples.

Results

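Expression of 10 genes of the WNT pathway was examined in mouse testis: the secreted antagonists Sfrp1, Sfrp2, Wif1 and Dkk3, and the WNT target or feedback genes Axin2, Lef1, Tcf7, Lgr5, Nkd1 and Znrf3. The genes were taken from a list, each read from the array's probe set that carries that gene symbol alone, and from the one with the highest mean over all arrays where a gene had several. For 9 of the 10 such a probe set was found among 22180 genes, and all 9 passed the filter on dim probe sets that left 19007 genes in the tests. Tcf7, which encodes a DNA-binding partner of β-catenin, had no probe set of a single symbol and was not analysed here.

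WNT proteins are secreted signals that bind Frizzled and LRP receptors and protect β-catenin from destruction, after which β-catenin enters the nucleus and switches on genes together with TCF/LEF factors. Several of these targets feed back on the pathway: Axin2 scaffolds β-catenin destruction, Nkd1 acts on Dishevelled, Znrf3 removes Frizzled from the cell surface, and Lgr5 binds the R-spondins that hold Znrf3 in check. The secreted antagonists work outside the cell: SFRP proteins and WIF1 bind WNT ligands, whereas Dkk3 is a Dickkopf relative whose part in the pathway is debated. In the gonad, WNT4, R-spondin 1 and β-catenin are known for their role in ovarian development, and the fetal testis keeps this signal low.

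Total RNA of whole testis was hybridised to 39 Affymetrix arrays. Of the 4 genotypes, 3 carried floxed Prkar1a, the gene of a regulatory subunit that holds the cAMP-dependent protein kinase PKA inactive, together with a Cre transgene. The prKO mice (Sf1:Cre, Prkar1a fl/fl; 4 arrays at 2 weeks and 3 at 2 months) had the Cre under the promoter of a factor made in the steroidogenic and supporting cells of the gonad and in the adrenal cortex. In the srKO mice (Amh:Cre, Prkar1a fl/fl; 4 and 4 arrays) the promoter was that of the Sertoli cell hormone AMH, and in the lrKO mice (Cyp11a1:Cre, Prkar1a fl/fl; 4 and 4 arrays) that of a steroidogenic enzyme, which in the testis marks Leydig cells. Wild-type (WT) littermates gave 8 arrays at each age. The labels do not say whether the WT animals carried a Cre or the floxed allele. The series compares loss of Prkar1a under these promoters, before and after the first wave of spermatogenesis is complete. The labels name whole testis as the tissue, but their extraction text speaks of adrenal glands; markers of spermatids summed to 13.95 to 14.26 in WT at 2 months against 10.17 to 10.44 in WT at 2 weeks. All values are log2 intensities, on which 1 unit is a 2-fold difference, and they compare a gene between samples but not 1 gene with another.

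Some arrays stood apart before any comparison. WT replicate 4 at 2 weeks had a summed intensity of 8 myoid and stromal markers (Acta2, Myh11, Des, Pdgfra, Tcf21, Dcn, Col1a1 and Col1a2) of 14.71, against 13.78 to 14.02 in the other 7 WT arrays of that age. At 2 months prKO replicate 3 had endothelial markers at 11.08, against 9.77 and 10.02 in the other prKO arrays, and prKO replicate 1 had epididymal markers at 11.77, against at most 7.15 in the other 2. At 2 weeks prKO replicate 3 had epididymal markers at 8.72, against 7.09 to 7.33 in the other 3 prKO arrays. The label check on Prkar1a gave 8.04 to 8.33 in prKO and 8.36 to 8.64 in srKO at 2 weeks, all below the 8.84 to 9.14 of WT (limma, log2 changes -0.78 ± 0.07 and -0.48 ± 0.07, SE, adjusted p = 4.5e-07 and 0.0022). At 2 months it was lower in prKO (8.36 to 8.66 against at least 8.61 and a mean of 8.84 in WT, -0.30 ± 0.09, adjusted p = 0.0078), but higher in the arrays labelled srKO (8.98 to 9.18, 0.24 ± 0.08, adjusted p = 0.030). The prKO call was lost when replicate 3 was left out (-0.20, adjusted p = 0.097), with the replicate number as a block (-0.17, adjusted p = 0.19) and with WT restricted to replicates 1 to 4 (-0.18, adjusted p = 0.12). The srKO call held under 16 of 23 alternative settings, and was lost with WT restricted to replicates 5 to 8 (0.12, adjusted p = 0.32), after centring, and when any 1 of srKO replicates 2, 3 and 4 or WT replicates 3 and 4 was left out (adjusted p of 0.050 to 0.096). In the arrays labelled lrKO it was not called at 2 weeks (8.98 to 9.08, adjusted p = 0.84) or at 2 months (8.86 to 8.90, adjusted p = 0.94). The probe set need not lie in the deleted part, so these values do not measure recombination.

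Of the 10 genes, 6 matched 10 promoter windows in the RefSeq table of build GRCm38.p6, each the 250 bases before a transcript start. Those of Sfrp2 (chr3:83766071-83766320, plus strand), Wif1 (chr10:121033754-121034003, plus strand) and Axin2 (chr11:108920099-108920348, plus strand) are shown because the 3 genes were all called higher in prKO at 2 months. One of the 4 windows of Lef1 (chr3:131156044-131156293, plus strand) is shown because it alone among the 10 held a searched motif, in capitals below. The windows shown for Sfrp2, Axin2 and Lef1 lie within the annotated span of the gene, and that of Wif1 directly before it.
Sfrp2: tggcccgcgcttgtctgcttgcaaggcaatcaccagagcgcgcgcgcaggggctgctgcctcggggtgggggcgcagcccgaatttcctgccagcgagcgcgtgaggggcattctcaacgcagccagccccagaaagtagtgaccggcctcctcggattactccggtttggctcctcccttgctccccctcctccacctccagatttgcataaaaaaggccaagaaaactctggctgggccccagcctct
Wif1: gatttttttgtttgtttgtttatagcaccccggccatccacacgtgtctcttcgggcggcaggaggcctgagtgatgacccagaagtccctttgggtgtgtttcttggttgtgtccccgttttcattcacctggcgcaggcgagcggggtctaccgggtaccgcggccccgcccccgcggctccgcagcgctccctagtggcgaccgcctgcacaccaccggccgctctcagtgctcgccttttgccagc
Axin2: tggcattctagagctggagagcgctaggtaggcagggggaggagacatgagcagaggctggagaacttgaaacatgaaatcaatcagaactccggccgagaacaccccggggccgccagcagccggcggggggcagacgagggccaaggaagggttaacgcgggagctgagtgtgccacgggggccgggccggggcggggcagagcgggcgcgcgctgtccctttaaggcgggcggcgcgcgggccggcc
Lef1: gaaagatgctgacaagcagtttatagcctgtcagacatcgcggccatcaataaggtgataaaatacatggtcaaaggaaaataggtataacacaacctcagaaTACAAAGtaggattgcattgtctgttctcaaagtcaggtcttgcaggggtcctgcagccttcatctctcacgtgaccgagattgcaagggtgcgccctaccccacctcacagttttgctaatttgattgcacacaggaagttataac
The search covered both strands for the TCF/LEF heptamers CTTTGAA (in 4.46% of 32851 mouse windows), CTTTGAT (3.21%), CTTTGTA (3.2%) and CTTTGTT (5.03%), for the CREB site TGACGTCA and for its shorter form TGACG, which that site contains. CTTTGTA, read as TACAAAG on the strand printed, was the 1 match, while 14.8% of all windows hold at least 1 of the 4 heptamers. TGACGTCA occurs in 1.55% and TGACG in 17.8% of all windows, and neither was present in the windows of these genes. The GC content was 63.6% in Sfrp2, 62.8% in Wif1, 69.2% in Axin2 and 44.8% in the Lef1 window, against a median of 52.4% over all windows. These matches describe letters in the windows and are not evidence of binding.

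In prKO testes at 2 weeks 3 of the 4 secreted antagonists were higher and none of the target genes was called. Of the 9 genes, 3 were called higher (Sfrp1, Wif1 and Dkk3) and 0 lower at an adjusted p below 0.05 over all genes tested, when 10.5% of all genes were called, 7.90% higher and 2.59% lower. Every prKO array lay above every WT array for 2 of the 9, a pattern that 4.27% of all genes showed, while 1.47% showed the reverse and no member did. The median log2 difference was 0.12 over the 9 genes and -0.01 over all genes tested. Comparisons of different lines with WT at one age share the same 8 WT arrays. In RNA of whole testis, fewer cells of a type and less RNA per cell cannot be told apart.

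Dkk3 had the largest of these differences. It measured 7.84, 8.25, 8.19 and 8.25 in prKO at 2 weeks, and ranged over 6.72, 7.10 and 7.40 (lowest, median and highest) in the 8 WT arrays. The groups did not overlap, with replicate 1 the lowest prKO array, and the difference was 2.06-fold (limma, log2 change 1.04 ± 0.12, adjusted p = 7.8e-06). It was called under 23 of 23 alternative settings. Wif1, which binds WNT ligands, measured 7.20, 6.96, 7.54 and 7.00 in prKO, against 6.45, 6.56 and 6.91 (lowest, median and highest) in WT. All 4 prKO arrays were above all WT arrays, the lowest by a small margin, and the log2 change was 0.56 ± 0.13 (adjusted p = 0.0079). With WT restricted to replicates 1 to 4 the change was 0.46 and lost its call (adjusted p = 0.14), as it did with the replicate block (adjusted p = 0.20). Without prKO replicate 3, the highest in Wif1 and in epididymal markers, it was 0.43 (adjusted p = 0.044).

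Sfrp1, a Frizzled-like decoy for WNT ligands, measured 10.11, 10.16, 9.99 and 10.26 in prKO at 2 weeks, against 8.98, 9.40 and 10.14 in WT. Only 2 of the 4 prKO arrays exceeded the highest WT array, which was replicate 4. The log2 change was 0.70 ± 0.17 (adjusted p = 0.0091), and it was 0.41 (adjusted p = 0.12) with WT restricted to replicates 1 to 4, which measured 9.85, 9.58, 9.30 and 10.14, while replicates 5 to 8 measured 9.51, 9.03, 9.01 and 8.98. With the replicate block it was also 0.41 (adjusted p = 0.14), and it was not called in a fit of the compared groups only (adjusted p = 0.050) or of all 8 groups (adjusted p = 0.10). Sfrp2, a close relative of Sfrp1, measured 8.55, 8.06, 8.15 and 8.44 in prKO, against 6.88, 7.19 and 9.54 in WT. The highest WT value was replicate 4, the array high in stromal markers; the other 7 WT arrays reached at most 7.33 and lay below all 4 prKO arrays. With all arrays Sfrp2 was not called (0.86 ± 0.33, adjusted p = 0.10), and without WT replicate 4 it was (1.16, adjusted p = 1.4e-06).

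No target gene was called by limma at 2 weeks, and 1 of the 5, Znrf3, had an unadjusted p below 0.05. Axin2, a feedback gene widely used as a readout of β-catenin activity, measured 7.73, 7.54, 7.78 and 7.70 in prKO, against 7.46, 7.56 and 7.96 in WT. These groups overlapped in full, with a log2 change of 0.09 ± 0.09 (95% interval -0.09 to 0.28, adjusted p = 0.54). Nkd1 measured 7.88, 7.57, 7.46 and 7.45 in prKO, against 7.11, 7.38 and 8.30 in WT, the highest again WT replicate 4 (0.12 ± 0.16, adjusted p = 0.67). Lef1, the DNA-binding partner of β-catenin, lay between 6.92 and 7.15 in prKO, within the WT range of 6.72 to 7.70 (-0.16 ± 0.15, adjusted p = 0.56). The stem cell receptor gene Lgr5 lay between 4.52 and 5.28 in prKO, against 4.70 to 5.01 in WT, near the filter value of 4.62 (0.09 ± 0.11, adjusted p = 0.63). Znrf3 lay between 8.46 and 8.67 in prKO, against 8.51 to 8.81 in WT, with 2 of 4 prKO arrays below all WT (-0.15 ± 0.06, adjusted p = 0.13).

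**Figure D1:**
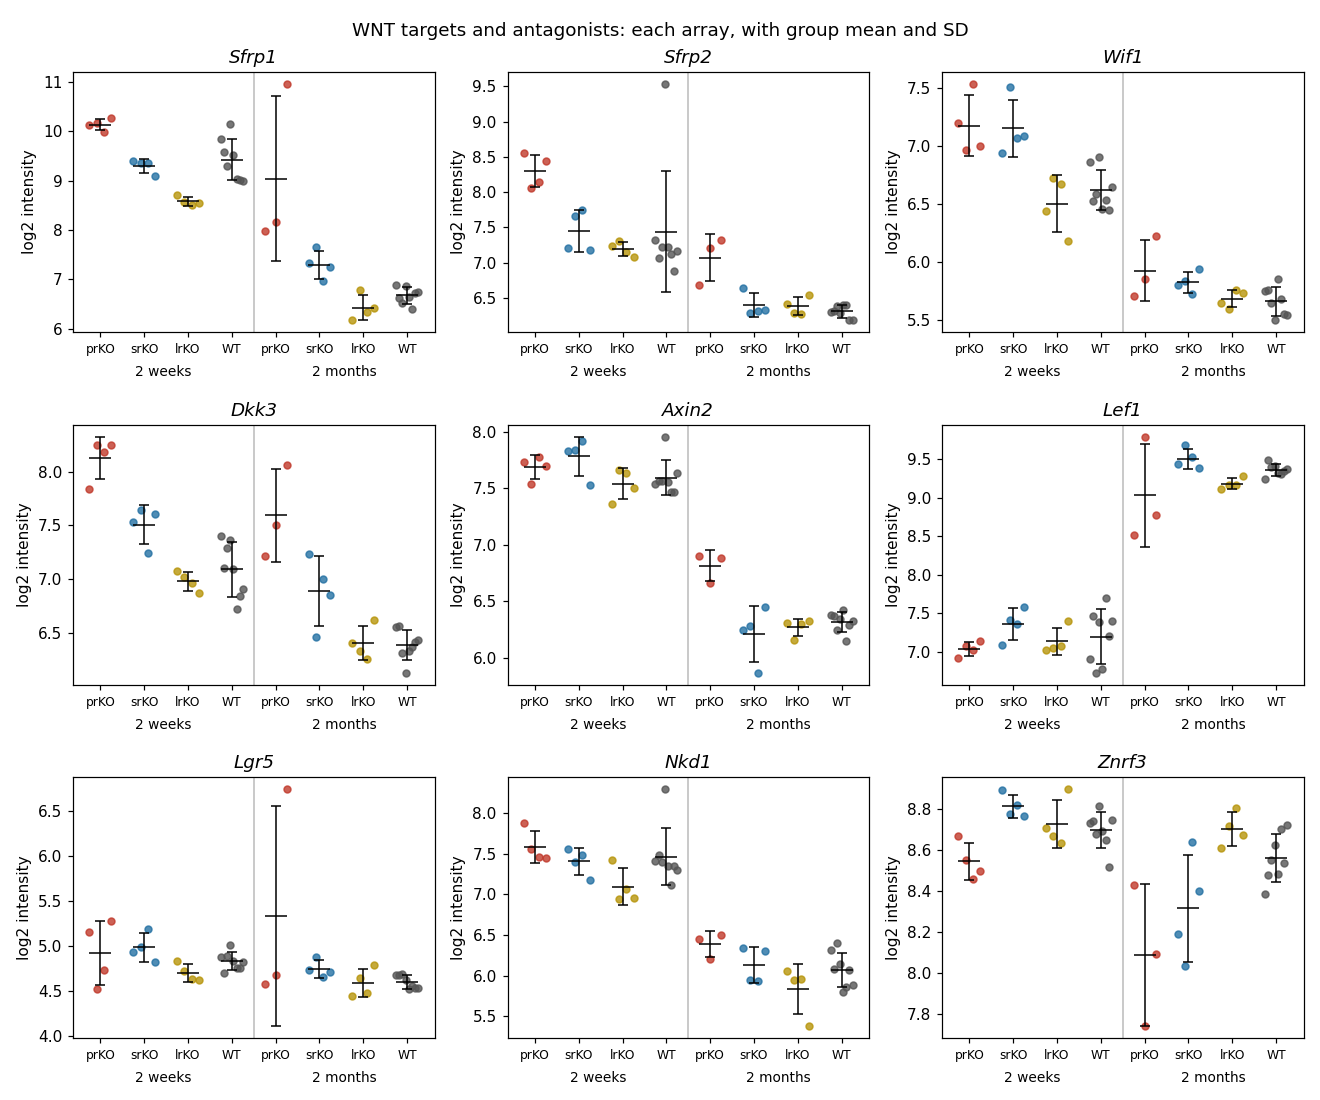
Log2 intensity of 9 WNT genes in each array at 2 weeks (left of each panel) and 2 months (right), with points for arrays, a horizontal line for the group mean and bars for the SD (n = 3 or 4 arrays in prKO, 4 in srKO and lrKO, 8 in WT). Dkk3 in prKO lies above WT at both ages, and single arrays stand apart at 10.96 for Sfrp1 and 6.74 for Lgr5 in prKO at 2 months and at 9.54 for Sfrp2 in WT at 2 weeks.

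At 2 months all 4 secreted antagonists and the feedback gene Axin2 were called higher in prKO testes, Wif1 under 13 of 22 alternative settings. Here 6 of the 9 genes were called higher (Sfrp1, Sfrp2, Wif1, Dkk3, Axin2 and Lgr5) and 1 lower (Znrf3), when 48.4% of all genes were called, 26.0% higher and 22.4% lower. Every prKO array lay above every WT array for 4 genes (Sfrp1, Sfrp2, Dkk3 and Axin2), a pattern seen in 18.3% of all genes, while 13.8% lay below in every prKO array and no member did. The median log2 difference was 0.50 over the 9 genes and 0.02 over all genes tested. Without prKO replicate 3 the genes called were 5, and without replicate 1, the array with epididymal markers, they were 7.

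Sfrp1 measured 7.97, 8.17 and 10.96 in prKO at 2 months, against 6.39, 6.68 and 6.89 (lowest, median and highest) in WT. All 3 prKO arrays were above all WT arrays, with replicate 3 far above the other 2. The mean difference was 5.13-fold (limma, log2 change 2.36 ± 0.39, adjusted p = 5.0e-05), and 1.40 (adjusted p = 2.3e-06) without replicate 3. Dkk3 measured 7.21, 7.50 and 8.06 in prKO, against 6.12, 6.39 and 6.56 in WT. Its groups did not overlap and the difference was 2.31-fold (1.21 ± 0.15, adjusted p = 3.1e-06), called under 22 of 22 alternative settings. Sfrp2 measured 6.69, 7.21 and 7.32 in prKO, against 6.18, 6.31 and 6.41 in WT. These groups were also apart (0.76 ± 0.11, adjusted p = 1.3e-05), and the change was 0.34 (adjusted p = 0.0028) when the mean of both Sfrp2 probe sets was used. Wif1 measured 5.71, 5.85 and 6.22 in prKO, against 5.50, 5.66 and 5.85 in WT, with 2 of 3 arrays above all WT. Its log2 change of 0.27 ± 0.10 (adjusted p = 0.027) rested on replicate 3, since it was 0.12 (adjusted p = 0.34) without it, and centring each array gave 0.15 (adjusted p = 0.21).

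Axin2 was the target gene that separated the groups at this age. It measured 6.90, 6.66 and 6.89 in prKO, against 6.15, 6.33 and 6.42 in WT, with no overlap. The log2 change was 0.50 ± 0.10, or 1.41-fold (adjusted p = 0.00026), and it was called under 22 of 22 alternative settings. Lgr5 measured 4.57, 4.67 and 6.74 in prKO, against 4.51, 4.59 and 4.69 in WT. Only replicate 3 stood above WT, and the call (0.73 ± 0.28, adjusted p = 0.035) was lost without it (0.03, adjusted p = 0.86); the WT mean of 4.60 lies below the filter value. Nkd1 measured 6.45, 6.20 and 6.50 in prKO, against 5.80, 6.07 and 6.40 in WT, with 2 of 3 arrays above all WT. It was not called (0.32 ± 0.15, adjusted p = 0.080), but was when WT replicate 3 was left out (adjusted p = 0.043) or WT held replicates 5 to 8 only (0.48, adjusted p = 0.019).

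Znrf3 and Lef1 had lower means in prKO at 2 months. Znrf3, the ubiquitin ligase that removes Frizzled receptors, measured 8.43, 7.74 and 8.09 in prKO, against 8.39, 8.54 and 8.72 in WT. With 2 of 3 arrays below all WT it was called lower (-0.47 ± 0.12, adjusted p = 0.0040), though the call was lost when prKO replicate 2 was left out (-0.30, adjusted p = 0.061). Lef1 measured 8.52, 9.80 and 8.77 in prKO, against 9.25, 9.37 and 9.49 in WT. Replicates 1 and 3 lay below all WT arrays and replicate 2 above them all. With all arrays Lef1 was not called (-0.33 ± 0.16, adjusted p = 0.0997), without replicate 2 it was lower (-0.72, adjusted p = 4.7e-06), and centring each array also gave a call (-0.45, adjusted p = 0.029).

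The difference between ages was tested directly. The prKO minus WT difference was larger at 2 months than at 2 weeks for 2 of the 9 genes, Sfrp1 (1.65 ± 0.43, adjusted p = 0.0031) and Axin2 (0.41 ± 0.13, adjusted p = 0.019), when 28.2% of all genes passed this contrast, 15.8% upward and 12.3% downward. For Sfrp1 the difference was 0.69 (adjusted p = 0.041) without prKO replicate 3 of 2 months. The Axin2 contrast lost its call when a single prKO array was left out: replicate 2 of 2 weeks (0.36, adjusted p = 0.055), or, of 2 months, replicate 1 (0.36, adjusted p = 0.059) or replicate 3 (0.37, adjusted p = 0.063). That call was also lost after centring (0.30, adjusted p = 0.075) and with array weights (0.39, adjusted p = 0.077). With WT restricted to replicates 5 to 8 it was lost too (0.36, adjusted p = 0.078), and it held under 27 of 33 alternative settings. For Dkk3 the contrast was 0.17 ± 0.20 (95% interval -0.24 to 0.57, adjusted p = 0.59). Lef1 passed without prKO replicate 2 of 2 months (-0.56, adjusted p = 0.035), and Znrf3 without replicate 1 of that age (-0.49, adjusted p = 0.0044). Lgr5, at 0.64 ± 0.30 (adjusted p = 0.11), passed without prKO replicate 1 (1.02, adjusted p = 0.0073) or 2 (0.97, adjusted p = 0.016) of 2 months.

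In srKO testes few of the 9 genes were called. At 2 weeks the count was 0 of 9 by limma, with 3 (Wif1, Dkk3 and Axin2) at an unadjusted p below 0.05, when 0.873% of all genes were called, 0.784% higher and 0.0894% lower. Wif1 measured 6.94, 7.51, 7.07 and 7.09 in srKO, against 6.45, 6.56 and 6.91 in WT, so that all 4 srKO arrays lay above all WT arrays (0.53 ± 0.13, adjusted p = 0.056). It was the 1 member with this pattern, which 1.38% of all genes showed, while 0.268% showed the reverse. It passed without WT replicate 1 (adjusted p = 0.049) or 4 (adjusted p = 0.031), and under 7 of 23 settings in all. Dkk3 measured 7.53, 7.64, 7.25 and 7.61 in srKO, against 6.72, 7.10 and 7.40 in WT, with 3 of 4 arrays above all WT (0.42 ± 0.12, adjusted p = 0.12). Axin2 measured 7.83, 7.84, 7.92 and 7.53 in srKO, all within the WT range of 7.46 to 7.96 (0.19 ± 0.09, adjusted p = 0.33). Sfrp1, at 9.40, 9.35, 9.35 and 9.09 in srKO, also lay within the WT range of 8.98 to 10.14 (-0.13 ± 0.17, adjusted p = 0.79). The other members in srKO spanned 7.18 to 7.75 for Sfrp2, 7.09 to 7.58 for Lef1, 4.82 to 5.19 for Lgr5, 7.18 to 7.56 for Nkd1 and 8.76 to 8.89 for Znrf3, with adjusted p of at least 0.39 (Znrf3).

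In the arrays labelled srKO at 2 months 1 of 9 genes was called higher (Dkk3) and 0 lower, when 25.4% of all genes were called, 14.7% higher and 10.8% lower. Dkk3 measured 7.23, 6.46, 7.00 and 6.85 in these arrays, against 6.12, 6.39 and 6.56 in WT, with 3 of 4 above all WT. The log2 change of 0.50 ± 0.14 (adjusted p = 0.011) lost its call when srKO replicate 1 was left out (0.39, adjusted p = 0.066) and when WT was restricted to replicates 1 to 4 (adjusted p = 0.060) or to 5 to 8 (adjusted p = 0.050), and with the replicate block (adjusted p = 0.092). Sfrp1 measured 7.34, 7.65, 6.96 and 7.24, against 6.39, 6.68 and 6.89 in WT. All 4 lay above all WT arrays, as for 9.52% of all genes (7.35% lay below), but the change of 0.63 ± 0.35 was not called (adjusted p = 0.21) in the model that shares its spread with prKO. In a fit of srKO and WT only, it was (adjusted p = 0.00090). Axin2 measured 6.24, 6.28, 5.86 and 6.45, on both sides of the WT median of 6.33 (-0.11 ± 0.09, adjusted p = 0.42). Znrf3 measured 8.19, 8.04, 8.64 and 8.40, with 2 of 4 below all WT (-0.24 ± 0.11, adjusted p = 0.13), and was called without srKO replicate 3 (-0.35, adjusted p = 0.030). The other members spanned 6.29 to 6.65 for Sfrp2, 5.72 to 5.94 for Wif1, 9.39 to 9.68 for Lef1, 4.66 to 4.88 for Lgr5 and 5.93 to 6.34 for Nkd1, with adjusted p of at least 0.18 (Wif1). The change between ages passed for Znrf3 alone (-0.36 ± 0.13, adjusted p = 0.049), when 17.2% of all genes passed, 8.49% upward and 8.76% downward, and it held under 11 of 34 alternative settings.

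Arrays labelled lrKO gave 0 called genes of 9 at either age by limma, with 2 at an unadjusted p below 0.05 at 2 weeks and 0 at 2 months. Over all genes the calls were 0.100% at 2 weeks (0.0368% higher and 0.0631% lower) and 0.184% at 2 months (0.110% higher and 0.0737% lower). Sfrp1 at 2 weeks measured 8.71, 8.56, 8.50 and 8.55 in these arrays, against 8.98, 9.40 and 10.14 in WT. All 4 lay below all WT arrays, as for 0.589% of all genes (0.384% lay above), with a log2 change of -0.84 ± 0.17 (adjusted p = 0.053). It passed under 8 of 23 alternative settings, including those without WT replicate 4 (-0.74, adjusted p = 0.032), 6, 7 or 8. The size depended on the WT arrays used. With WT restricted to replicates 1 to 4 the change was -1.14 (adjusted p = 0.00083), and with replicates 5 to 8 it was -0.55 and not called. Over all alternatives the adjusted p reached 0.33. The other gene at an unadjusted p below 0.05 was Nkd1, at 7.42, 6.94, 7.06 and 6.95, against 7.11, 7.38 and 8.30 in WT (-0.37 ± 0.16, adjusted p = 0.49). The rest spanned 7.09 to 7.31 for Sfrp2, 6.18 to 6.72 for Wif1, 6.87 to 7.08 for Dkk3, 7.36 to 7.66 for Axin2, 7.02 to 7.40 for Lef1, 4.61 to 4.83 for Lgr5 and 8.64 to 8.89 for Znrf3, with adjusted p of at least 0.72 (Lgr5). At 2 months Sfrp1 measured 6.18, 6.79, 6.33 and 6.42, against 6.39, 6.68 and 6.89 in WT, and was not called (-0.25 ± 0.35, adjusted p = 0.91). No member separated lrKO from WT in every array at 2 months, when 0.810% of all genes lay above and 0.979% below. Dkk3 lay at 6.40, 6.33, 6.26 and 6.62, against the WT range of 6.12 to 6.56 (0.02 ± 0.14, adjusted p = 0.99). Lef1 measured 9.11, 9.17, 9.17 and 9.29, with 3 of 4 arrays below the lowest WT array of 9.25 (-0.18 ± 0.15, adjusted p = 0.81). The rest spanned 6.28 to 6.55 for Sfrp2, 5.59 to 5.76 for Wif1, 6.16 to 6.33 for Axin2, 4.44 to 4.79 for Lgr5, 5.38 to 6.06 for Nkd1 and 8.61 to 8.80 for Znrf3, with adjusted p of at least 0.68 (Nkd1).

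**Figure D2:**
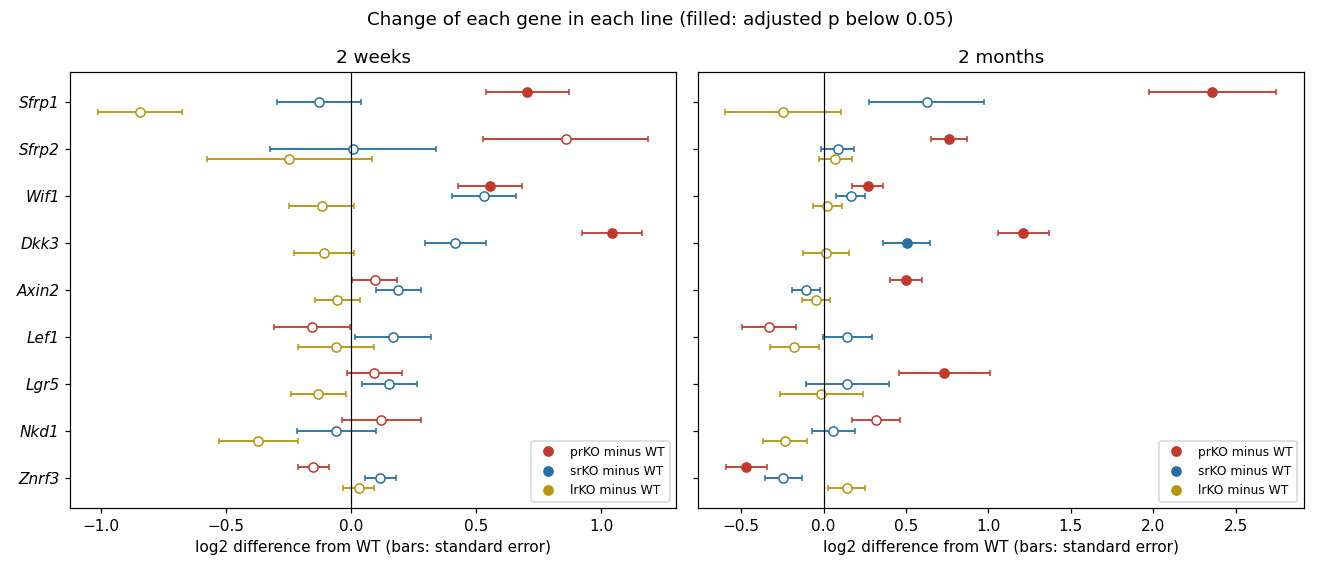
Log2 difference of each line from WT for the 9 genes at 2 weeks (left) and 2 months (right), with the standard error as bars; filled points passed an adjusted p of 0.05 in limma. In prKO, 3 genes are filled at 2 weeks and 7 at 2 months, the largest being Sfrp1 at 2.36; in srKO the filled point is Dkk3 at 2 months (0.50), and lrKO has none.

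Set directly against srKO, prKO was higher in Sfrp1 and Dkk3 at both ages. At 2 weeks 2 genes were called higher and 1 lower, when 11.8% of all genes were called, 6.90% higher and 4.85% lower. Sfrp1 (0.83 ± 0.19, adjusted p = 0.0083) and Dkk3 (0.63 ± 0.14, adjusted p = 0.0062) had all 4 prKO arrays above all 4 srKO arrays, as in 10.6% of all genes. Sfrp1 lost its call in a fit of all 8 groups (adjusted p = 0.099). Sfrp2 also had all 4 prKO arrays above all 4 srKO arrays (8.06 to 8.55 in prKO against 7.18 to 7.75 in srKO), but was not called (0.85 ± 0.38, adjusted p = 0.16). It was called in 3 of 19 alternative settings, among them the fit of these 8 arrays alone (adjusted p = 0.0081). Znrf3 had all 4 below (-0.27 ± 0.07, adjusted p = 0.020), as in 9.20% of all genes, but lost its call when 1 of 3 arrays was left out, with adjusted p = 0.058 for prKO replicate 3, 0.057 for prKO replicate 4 and 0.060 for srKO replicate 1. Wif1 did not separate the lines (0.02 ± 0.15, 95% interval -0.29 to 0.33, adjusted p = 0.94).

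At 2 months 4 genes were called higher in prKO than in the arrays labelled srKO and 0 lower, when 25.6% of all genes were called, 13.4% higher and 12.1% lower. They were Sfrp1 (1.73 ± 0.44, adjusted p = 0.0074), Sfrp2 (0.68 ± 0.12, adjusted p = 0.0010), Dkk3 (0.71 ± 0.17, adjusted p = 0.0065) and Axin2 (0.61 ± 0.11, adjusted p = 0.00080). Axin2 was at 6.90, 6.66 and 6.89 in prKO against at most 6.45 in srKO, so these arrays did not overlap; nor did those of Sfrp1 and Sfrp2, while 12.7% of all genes lay wholly above and 11.0% wholly below. In a fit of these 7 arrays alone 0 of the 4 were called, with adjusted p = 0.13 for Sfrp1, 0.054 for Sfrp2, 0.10 for Dkk3 and 0.052 for Axin2. Sfrp2 was not called in a fit of all 8 groups (adjusted p = 0.12), and was 0.33 (adjusted p = 0.016) with the mean of its probe sets. Without prKO replicate 3 Sfrp1 differed by 0.77 (adjusted p = 0.0084), and Dkk3 was not called (0.47, adjusted p = 0.064). Another 3 genes passed when 1 prKO array was left out: Lef1 without replicate 2 (-0.86, adjusted p = 1.4e-05), Znrf3 without replicate 1 (-0.40, adjusted p = 0.038), and Lgr5 without replicate 1 (0.97, adjusted p = 0.025) or 2 (0.92, adjusted p = 0.044).

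In WT testes 6 of the 9 genes were lower and 1 was higher at 2 months than at 2 weeks, when 81.6% of all genes were called, 55.0% lower and 26.7% higher at 2 months. Sfrp1 had a median of 6.68 in WT at 2 months, against 9.40 in WT at 2 weeks, a 6.73-fold fall (-2.75 ± 0.23, adjusted p = 3.5e-13). Nkd1 (-1.40 ± 0.12), Axin2 (-1.28 ± 0.07), Sfrp2 (-1.13 ± 0.21), Wif1 (-0.96 ± 0.09) and Dkk3 (-0.71 ± 0.11) were also lower at 2 months, each with all 8 arrays below all arrays of 2 weeks, as in 37.7% of all genes. With the mean of its probe sets Sfrp2 was lower by less (-0.51, adjusted p = 0.00059). The one gene that rose was Lef1, whose WT range was 9.25 to 9.49 at 2 months against 6.72 to 7.70 at 2 weeks, with no overlap, as in 20.1% of all genes, and a 4.49-fold difference (2.17 ± 0.13, adjusted p = 9.1e-18). Lgr5 (-0.23 ± 0.16, adjusted p = 0.20) and Znrf3 (-0.14 ± 0.07, adjusted p = 0.092) were not called, although all 8 arrays of Lgr5 were lower at 2 months. In a fit of the WT arrays alone both were called (adjusted p = 0.00065 for Lgr5 and 0.039 for Znrf3). The median over the 9 genes was -0.96, against -0.24 over all genes tested. In the same contrast 8 of 8 myoid and stromal markers (median -2.15), 7 of 8 Sertoli cell markers (-1.60) and 5 of 5 endothelial markers (-1.47) were lower. In the other direction, 5 of 6 spermatid markers (median 5.81) and 3 of 4 Leydig cell markers (0.98) were higher. The part of these cell types in the age differences of the WNT genes was not tested.

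Marker genes of cell types in and around the testis also differed between groups. Over all genes 7.90% were called higher and 2.59% lower in prKO at 2 weeks. At 2 months the shares were 26.0% higher and 22.4% lower in prKO, and 14.7% higher and 10.8% lower in srKO. In prKO the 8 myoid and stromal markers summed to 14.18 to 14.52 at 2 weeks, against 13.78 to 14.71 in WT, with 3 of 8 called higher. At 2 months they summed to 13.04 to 13.64 in prKO and 11.92 to 12.67 in the arrays labelled srKO, both above the 11.61 to 11.91 of WT, with 7 of 8 and 4 of 8 called higher. The prKO array with the highest Sfrp1 and Lgr5, replicate 3, had the highest stromal sum, and WT replicate 4, with the highest WT value at 2 weeks of all members but Dkk3 and Lef1, had the highest sum of that age. Macrophage markers summed to 10.73 to 11.06 in prKO at 2 weeks, against 9.82 to 10.65 in WT, with 3 of 5 called higher. At 2 months they summed to 10.11 to 10.74 in prKO, with 5 of 5 called higher, against 9.54 to 9.85 in WT. The arrays labelled srKO at that age were also above WT in macrophage markers, at 9.997 to 10.49, with 3 of 5 called higher. The 8 Sertoli cell markers summed to 11.48 to 12.19 in prKO and 11.46 to 11.84 in srKO at 2 months, both above the 11.12 to 11.38 of WT, with 4 called higher and 2 lower in prKO and 1 higher and 2 lower in srKO. The 5 granulosa cell markers summed to 8.93 to 9.32 in prKO at 2 months, against 8.27 to 8.59 in WT, with 3 of 5 called higher. Those 3 were Wnt4, Rspo1 and Fst, which are also counted among the other WNT genes below. In srKO at 2 months the granulosa cell markers summed to 8.58 to 8.66, and the 2 of 5 called higher were Wnt4 and Fst. Endothelial markers summed to 9.77 to 11.08 in prKO at 2 months, against 8.68 or more and a median of 8.83 in WT, with 5 of 5 called higher. The arrays labelled srKO at that age also lay above all WT arrays in endothelial markers, at 9.33 to 9.83, with 4 of 5 called higher. The 4 Leydig cell markers with a probe set summed to 13.14 to 13.67 in prKO at 2 weeks, against 10.27 to 11.48 in WT, and to 13.05 to 13.91 at 2 months, against 11.97 to 12.55. In srKO at 2 months they summed to 12.51 to 13.02, with 2 of 4 called higher, against 3 of 4 in prKO. Spermatid markers summed to 12.75 to 13.61 in prKO and 12.22 to 13.27 in srKO at 2 months, below the 13.95 to 14.26 of WT. T lymphocyte markers summed to 7.21 to 7.44 in prKO at 2 months, against 7.33 to 7.51 in WT, which overlap. The part of these cell types in the values of Sfrp1, Sfrp2, Wif1, Dkk3 and Axin2 was not tested.

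**Figure D3:**
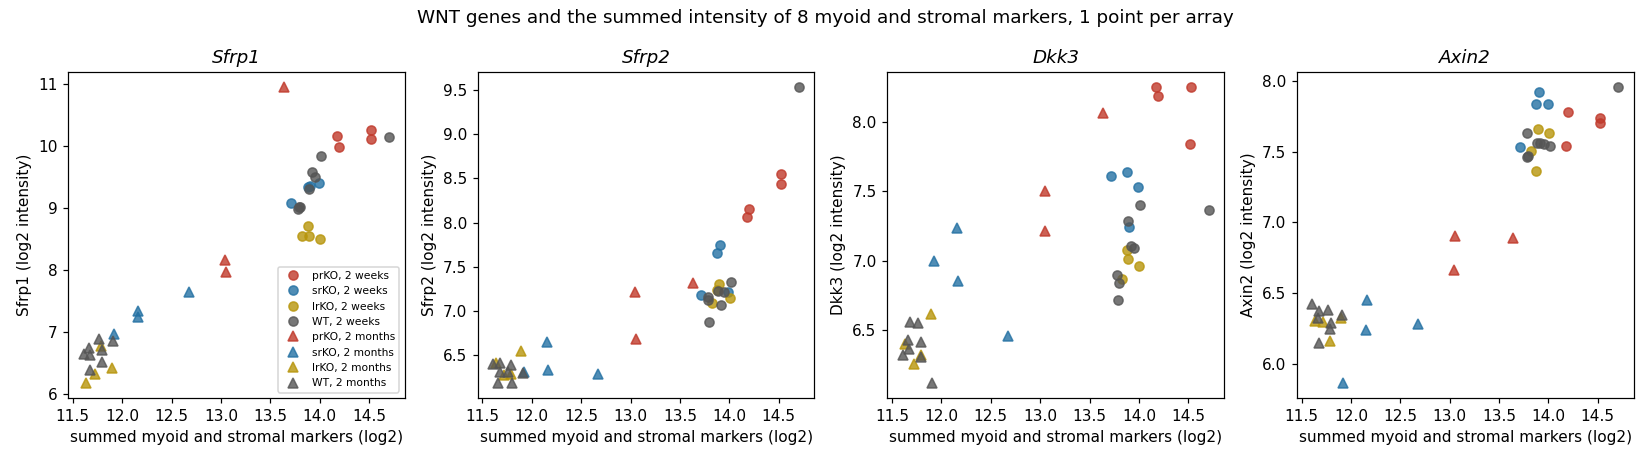
Log2 intensity of Sfrp1, Sfrp2, Dkk3 and Axin2 (vertical) against the summed intensity of 8 myoid and stromal markers (horizontal, log2), 1 point per array, with circles for 2 weeks and triangles for 2 months. Of the 2-month arrays, the 3 of prKO lie highest in both the markers and Sfrp1; the WT circle at 14.71 on the horizontal axis is replicate 4, with Sfrp2 at 9.54 and Dkk3 at 7.37.

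The rest of the pathway was read from 77 other WNT genes in lists by role, of which 73 were tested. In prKO at 2 weeks 7 were called higher and 0 lower, near the share over all genes (7.90% higher and 2.59% lower). Frzb, a secreted relative of the SFRP antagonists, lay between 9.55 and 9.82 in prKO, against 8.03 to 8.79 in WT (1.29 ± 0.13, adjusted p = 1.5e-06), and Kremen1, a receptor for Dickkopf proteins, was the other antagonist called (0.30 ± 0.06, adjusted p = 0.0040). Kremen1 lost its call with the replicate block (0.28, adjusted p = 0.074) and with WT restricted to replicates 1 to 4 (adjusted p = 0.062). The receptor genes Ror1 (0.87 ± 0.13), Lrp5 (0.69 ± 0.09) and Fzd1 (0.41 ± 0.09) were the 3 of 14 receptors called, with adjusted p at most 0.0034. Fzd1 lost its call with the replicate block (0.32, adjusted p = 0.16) and with WT restricted to replicates 1 to 4 (adjusted p = 0.091). Among 7 R-spondin and LGR genes Rspo1, the R-spondin of ovarian development, was called (0.72 ± 0.11, adjusted p = 0.00028). Of 19 ligand and secretion genes 1 was called, the WNT carrier Wls (0.73 ± 0.22, adjusted p = 0.037), and it lost its call when any 1 of 9 arrays (all 4 prKO and 5 WT) was left out. With the replicate block Wls was 0.45 (adjusted p = 0.445). Of 12 transducers and 10 other targets 0 were called by limma, with 2 and 1 at an unadjusted p below 0.05. Without WT replicate 4 the count was 16, and it ran between 4 with the replicate block and 20 against WT replicates 5 to 8 alone.

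At 2 months 32 of the 73 were called higher in prKO and 2 lower, when 26.0% of all genes were called higher and 22.4% lower, and the median log2 difference was 0.21 over the 73 and 0.02 over all genes tested. By role, 8 of 19 ligand and secretion genes, 9 of 14 receptors, 3 of 7 R-spondin and LGR genes and 6 of 12 transducers were higher and none was lower. Wls lay between 8.10 and 8.94 in prKO, against 6.18 to 6.52 in WT (2.26 ± 0.18, adjusted p = 1.3e-08). Wnt4, the ligand known for ovarian development, lay between 7.06 and 8.06, against 5.78 to 6.12 in WT (1.48 ± 0.14, adjusted p = 1.3e-07), and its change between ages was 1.24 ± 0.18 (adjusted p = 3.5e-06). Wnt5a (0.84 ± 0.14), the receptors Ror1 (1.37 ± 0.16), Ryk (0.78 ± 0.11) and Fzd1 (0.75 ± 0.10), the R-spondin receptor Lgr4 (1.24 ± 0.14) and Rspo1 (0.66 ± 0.10) also rose, with adjusted p at most 5.6e-05. Rspo3 rose by 0.98 ± 0.16, or 0.65 without prKO replicate 1. Among transducers Ctnnb1, the gene of β-catenin, rose by 0.75 ± 0.10 (adjusted p = 4.3e-06) and Dvl3, a Dishevelled, by 0.68 ± 0.08. Axin1 (0.41 ± 0.14, adjusted p = 0.018) lost its call when prKO replicate 1 (adjusted p = 0.055) or 2 (adjusted p = 0.059) was left out. With the replicate block Axin1 was 0.14 (adjusted p = 0.26), with WT restricted to replicates 1 to 4 it was 0.14 (adjusted p = 0.18), with WT restricted to replicates 5 to 8 it was 0.67 (adjusted p = 2.0e-05), and after centring it was 0.29 (adjusted p = 0.069).

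Among the 12 other antagonists 2 were higher and 1 lower in prKO at 2 months, and among the 10 other targets 4 were higher and 1 lower, when 48.4% of all genes were called in either direction. Frzb lay between 9.06 and 9.84 in prKO, against 7.35 to 7.82 in WT (1.92 ± 0.15, adjusted p = 1.3e-08). Sfrp4 rose by 1.56 ± 0.33 (adjusted p = 0.00060), or 0.77 (adjusted p = 0.0010) without prKO replicate 3. Sfrp5 was called lower (-0.26 ± 0.10, adjusted p = 0.047), and not without prKO replicate 1 (-0.14, adjusted p = 0.34) or without any 1 of 6 WT arrays. The cell growth gene Myc rose by 0.69 ± 0.11 (adjusted p = 5.0e-05), the cyclin gene Ccnd1 by 0.64 ± 0.16 (adjusted p = 0.0020; 0.32 without prKO replicate 1) and the activin binder Fst by 0.42 ± 0.10. The target called lower was Bambi (-0.32 ± 0.08, adjusted p = 0.0017), a decoy receptor of the TGF-β family named here after its value was seen, and it was called under 22 of 22 alternative settings, run for it after seeing the data.

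In the arrays labelled srKO at 2 months 12 of the 73 were higher and 4 lower, when 14.7% of all genes were higher and 10.8% lower, so that the higher calls were near that share, and the median was -0.01 against 0.03 over all genes tested. Wnt4 lay between 6.91 and 7.04, against 5.78 to 6.12 in WT (1.00 ± 0.13, adjusted p = 9.6e-06), and Frzb between 8.47 and 8.78, against 7.35 to 7.82 in WT (1.05 ± 0.14, adjusted p = 1.1e-05). Wls (0.91 ± 0.16), Lgr4 (0.73 ± 0.13), Fzd5 (0.50 ± 0.09) and Fzd6 (0.43 ± 0.10) were higher as well, with adjusted p at most 0.0035. Ctnnb1 rose by 0.34 ± 0.09 (adjusted p = 0.0082), but was 0.20 and not called with the replicate block (adjusted p = 0.18) or with WT restricted to replicates 1 to 4 (adjusted p = 0.13). The receptor gene Lrp6 (0.39 ± 0.09) was not called when the mean of its probe sets was used (0.07, adjusted p = 0.64). Porcn, the enzyme that attaches the lipid of WNT proteins (-0.58 ± 0.12, adjusted p = 0.0014), and the membrane antagonist Apcdd1 (-0.66 ± 0.14, adjusted p = 0.0016) were lower. Smaller calls for Myc (0.39), Dvl3 (0.25), Pygo2 (0.27), Fst (0.25) and Nkd2 (-0.31) each failed when 1 array was left out, for Myc and Dvl3 without srKO replicate 2, for Pygo2 without srKO replicate 4, and for Fst and Nkd2 without srKO replicate 2, among others. With WT restricted to replicates 5 to 8 Nkd2 was -0.11 (adjusted p = 0.44), and with replicates 1 to 4 it was -0.52 (adjusted p = 0.00090). In srKO at 2 weeks and in lrKO at 2 months 0 of 73 were called by limma, with 8 and 9 at an unadjusted p below 0.05. In lrKO at 2 weeks the 1 call was Frzb (0.74 ± 0.13, adjusted p = 0.031), lost when 1 lrKO array was left out, with adjusted p = 0.12 for replicate 1, 0.10 for replicate 2 and 0.15 for replicate 3.

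**Figure D4:**
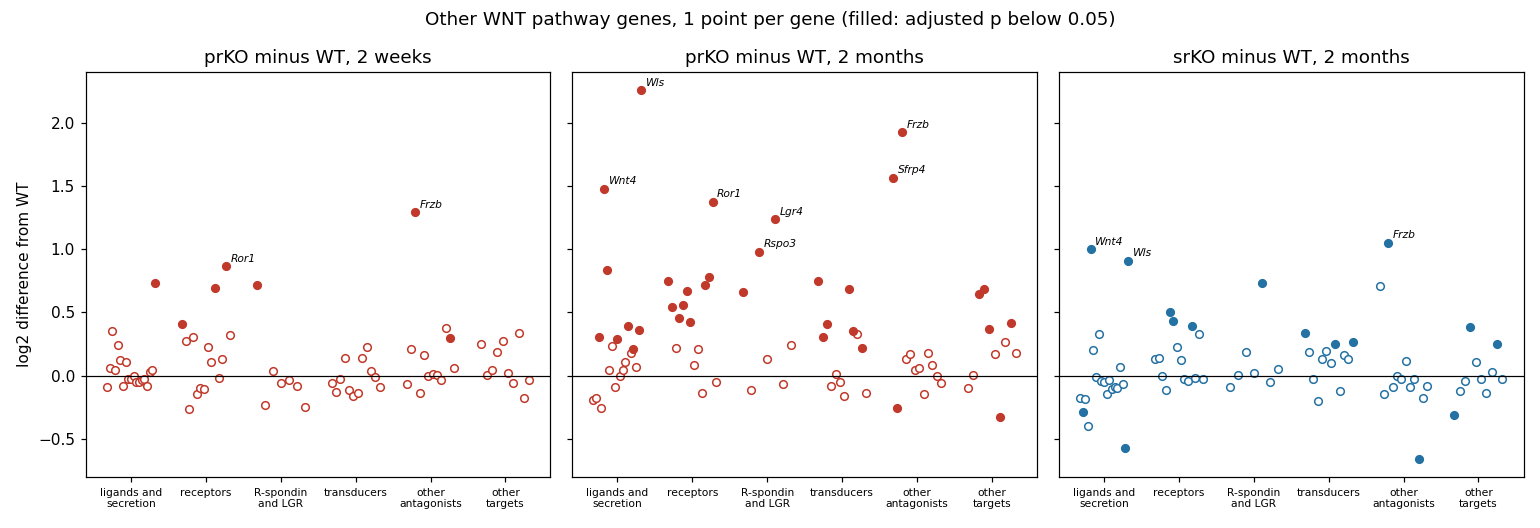
Log2 difference from WT of the other WNT genes by role (horizontal) for prKO at 2 weeks, prKO at 2 months and srKO at 2 months, 1 point per gene, with filled points where the adjusted p was below 0.05. In prKO at 2 months 32 genes are filled above 0 and 2 below, with Wls at 2.26 and Frzb at 1.92 the highest; Frzb is also the highest in the other 2 panels, at 1.29 and 1.05.

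The 2 genes with the largest differences from WT were compared with the tested genes over the 39 arrays, each value taken minus the WT mean of its age. Predicted genes, clone names, and microRNA, snoRNA, olfactory and vomeronasal receptor genes were passed over in the ranking. Closest to Sfrp1 were Cald1, the gene of an actin-binding protein of smooth muscle (Pearson r = 0.936), Fstl1, a secreted glycoprotein of stromal cells (r = 0.932), and Hsd11b1, which activates glucocorticoids (r = 0.928). Without prKO replicate 3 of 2 months these were 0.891, 0.867 and 0.832. Closest to Dkk3 were the sorting receptor gene Sorl1 (r = 0.878), the protein kinase C gene Prkca (r = 0.875) and the insulin receptor gene Insr (r = 0.875), with 0.842, 0.871 and 0.845 without that array. The arrays of a group share genotype and age, so these are descriptions.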

How the data were processed

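The values as deposited by the authors are on the log2 scale, 1 intensity for each probe set of each array, after RMA per the submitters' processing notes; the version of RMA is not given in the sources used here. Labelled cDNA was made from 500 ng of RNA, per the labels' protocols. The table held 41345 probe sets, of which 23521 carried 1 gene symbol in the platform annotation, 1814 several and 16010 none here. For the 1082 genes with several, the probe set with the highest mean was used (for the members this applied to Sfrp2, Axin2 and Lgr5), and a gene was tested where a group mean exceeded the 25th percentile of all values (4.62). Array medians lay between 5.81 and 6.02. Arrays give no read depth, so their number limits the precision.

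Groups follow the sample titles. A linear model of the 4 genotypes was fitted at each age with limma 3.58.1 (lmFit, eBayes) in R 4.3.3, and a model of all 8 groups for contrasts between ages. All p-values are two-sided and were adjusted by the Benjamini-Hochberg method across the 19007 genes, with a threshold of 0.05; values after ± are standard errors. The titles call the arrays biological replicates. Each p-value sets a difference of means against the spread between arrays of a group, pooled over the groups in the model and moderated across genes. Marker sums are log2 of summed linear intensities.

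All members are named. Of the other WNT genes, up to 3 called genes per role and comparison with the largest change were named, and likeness was given for the 2 members with the largest change from WT. The members and lists were chosen with earlier results of these data known. Alternatives were no filter, a stricter filter, averaging the probe sets of each gene, a second quantile normalization, centring of arrays, array weights, other sets of groups in the fit, a replicate block, WT replicates 1 to 4 or 5 to 8 alone, and leaving out each array. Promoter windows come from RefSeq (GRCm38.p6). Gene coordinates are not printed, since no source used here gives the build of the array annotation.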

Additional observations from a re-analysis of the deposited data

Results flagged for a closer look

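In 8 of the 63 sets of 4 to 8 arrays of a group (9 genes in 7 groups) 1 array stood apart from the rest, by the gap to its neighbour as a share of the group's whole range; chance does so in about 1 in 20. For WT replicate 4 at 2 weeks this held for 3 genes: Sfrp2 at 9.54 with the next array at 7.33 (a gap of 0.830 of the range), Axin2 at 7.96 with the next at 7.64 (0.656) and Nkd1 at 8.30 with the next at 7.49 (0.686). Sfrp1 was lowest in srKO replicate 4 at 2 weeks, 9.09 with the next at 9.35 (0.841). Sfrp2 was highest in srKO replicate 1 at 2 months, 6.65 with the next at 6.33 (0.888). Dkk3 was lowest in prKO replicate 1 at 2 weeks, 7.84 with the next at 8.19 (0.840), still above all WT arrays. In lrKO, Lef1 was highest in replicate 4 at 2 weeks, 7.40 with the next at 7.08 (0.834), and Nkd1 was lowest in replicate 4 at 2 months, 5.38 with the next at 5.95 (0.834). The 3 prKO arrays of 2 months are too few for this check.

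The change from WT differed between 2 months and 2 weeks, by a contrast in limma, for Sfrp1 in prKO (1.65), Axin2 in prKO (0.41) and Znrf3 in srKO (-0.36).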

How the results depend on the processing

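None of the 9 genes' called values changed sign under any alternative, and 14 of the 28 called values kept their call at all of them. Single arrays moved several values. For prKO at 2 months these were replicate 3 for Sfrp1, Wif1 and Lgr5, and replicate 2 for Lef1 and Znrf3. For Sfrp2 it was WT replicate 4 of 2 weeks. Without replicate 3, Sfrp1 in prKO at 2 months was smaller but kept its call against WT. Other calls were lost only under settings of the model or of the WT arrays. Among them were Sfrp1 and Wif1 in prKO at 2 weeks. For prKO against srKO they included Sfrp1 at 2 weeks, and Sfrp1, Sfrp2 and Axin2 at 2 months. Lgr5 lay near background.

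The genes called of 9 moved by over 1.5 times under these alternatives. For prKO at 2 weeks (3) they were 1 against WT replicates 1 to 4 alone. For srKO at 2 weeks (0) they were 1 with the stricter filter, with quantile normalization, with all 8 groups and against WT replicates 5 to 8 alone, 2 after centring and 3 with array weights. For srKO at 2 months (1) they were 2 with only the groups compared and with all 8 groups, and 0 against either set of WT replicates. For lrKO at 2 weeks (0) they were 1 with the stricter filter, array weights and WT replicates 1 to 4 alone. For prKO against srKO they were 1 with all 8 groups at 2 weeks (3) and 0 with only the groups compared at 2 months (4). For the change between ages in prKO (2) they were 1 against WT replicates 5 to 8, and in srKO (1) they were 0 with no filter or with either set of WT replicates, 2 with quantile normalization, array weights or only the groups compared, and 3 after centring. Smaller moves were to 2 to 4 for prKO at 2 weeks (3), 5 or 6 for prKO at 2 months (7), 4 for prKO against srKO at 2 weeks (3) and 3 or 5 at 2 months (4), 9 for WT between ages with only the groups compared (7), and 3 for the change between ages in prKO with array weights (2). Leaving out each array gave 3 to 4 for prKO, 0 to 1 for srKO and 0 to 1 for lrKO at 2 weeks, 5 to 8 for prKO, 0 to 2 for srKO and 0 for lrKO at 2 months, 2 to 3 (2 weeks) and 3 to 6 (2 months) for prKO against srKO, 7 for WT between ages, and 1 to 4 in prKO and 0 to 2 in srKO for the change between ages. Beyond the construction of these alternatives, the cause was not tested.

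Replicate numbers did not pair the arrays: in 45 pairs of same-numbered arrays of different groups the deviations from the group means correlated at -0.623 to 0.441, over 0.1 in 8, and an array correlated best with its own number in 21 of 90 cases. With the replicate block the genes called were 1 for prKO at 2 weeks, 0 for srKO at 2 months, 1 for lrKO at 2 weeks and 0 for the change between ages in srKO; all genes called for prKO at 2 weeks were 598, against 1994 without it.

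All genes called at 2 weeks ran from 598 to 4802 for prKO (1994), 33 to 2234 for srKO (166) and 3 to 942 for lrKO (19); at 2 months from 16 to 145 for lrKO (35); for prKO against srKO from 1415 to 3650 at 2 weeks (2234) and 1083 to 5519 at 2 months (4860). In srKO the change between ages reached 4975 with array weights (3278). The other WNT genes, whose alternatives were chosen after seeing the data, gave 4 to 20 (7) for prKO, 0 to 5 (0) for srKO and 0 to 5 (1) for lrKO at 2 weeks, 11 to 20 (16) for srKO and 0 to 2 (0) for lrKO at 2 months, 5 to 14 (12) and 11 to 26 (25) for prKO against srKO at 2 weeks and 2 months, and 4 to 16 (8) for the srKO change between ages. Centring moved the median of all genes for prKO at 2 months to -0.10 and the share of calls that were higher to 37.2%, against 53.7% as deposited; that share moved to 53.8% against 36.8% for lrKO at 2 weeks, to 37.4% against 58.7% and 33.4% against 52.6% for prKO against srKO, and to 39.4% against 56.3% and 31.2% against 49.2% for the changes between ages in prKO and srKO.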
